A study of Mus musculus with 2 samples.

Results

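The genes described here handle or read retinoic acid. They are 9 of the 31053 genes in the deposited matrices: Cyp26b1, Dhrs3, Rarb, Rarg, Rara, Rxra, Adh1, Aldh1a1 and Aldh1a2. They were chosen by symbol after UMI levels of several of them had been compared between these libraries, so the levels and the differences are given as a description, with no test. They were followed across endothelial-, fibroblast-, pericyte-, smooth muscle- and endocardial-like cells and across endothelial and fibroblast subtypes. Each gene symbol occurred once in the gene table.

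Single-cell RNA sequencing was done on suspensions of mouse heart from which cardiomyocytes and CD45-positive leukocytes had been removed. The db/+ library comes from mice with 1 mutated copy of the leptin receptor gene. The db/db + salt library comes from mice with both copies mutated that also received 1% salt, which the series title presents as modelling HFpEF, heart failure in which the ejection fraction is preserved. The design text names 4 male hearts per genotype; the sources used here give neither the age nor whether hearts were pooled. With 1 library per group, genotype, salt and library cannot be told apart, the spread between animals is unknown, and every interval below covers counting error only.

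Retinol reaches cells from the blood and is oxidised to retinal by alcohol and retinol dehydrogenases such as Adh1. Retinal is then oxidised to retinoic acid by the aldehyde dehydrogenases Aldh1a1 and Aldh1a2, while Dhrs3 reduces retinal back to retinol and so lowers the supply. Retinoic acid binds the nuclear receptors Rara, Rarb and Rarg, which act on DNA as partners of retinoid X receptors such as Rxra, and Cyp26b1, a cytochrome P450, breaks it down. Cyp26 enzymes, Dhrs3 and Rarb are known to be induced by retinoic acid in many cell types, and Aldh1a2 is known in the heart as the enzyme of the epicardium.

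The upstream sequences of Cyp26b1, Dhrs3 and Rarb, the 3 members named above as induced by retinoic acid, are shown first. Bases come from RefSeq promoters of GRCm38.p6, are written 5′ to 3′ on the gene's strand, and leave out bases that GENCODE M21 places in an exon, except for the Rarb stretch. Capitals mark retinoic acid receptor hexamers where they form a direct repeat. The search covered both strands and 4 spellings, the consensus AGGTCA and, as variants of it, AGTTCA as well as GGGTCA as well as GGTTCA.
Rarb, chr14:16575507-16575536, minus strand: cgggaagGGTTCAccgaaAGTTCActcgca
Cyp26b1, chr6:84593909-84594060, minus strand: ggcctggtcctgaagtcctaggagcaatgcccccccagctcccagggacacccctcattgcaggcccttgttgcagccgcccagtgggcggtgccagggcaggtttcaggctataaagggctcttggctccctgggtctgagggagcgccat
Dhrs3, chr4:144892577-144892826, plus strand: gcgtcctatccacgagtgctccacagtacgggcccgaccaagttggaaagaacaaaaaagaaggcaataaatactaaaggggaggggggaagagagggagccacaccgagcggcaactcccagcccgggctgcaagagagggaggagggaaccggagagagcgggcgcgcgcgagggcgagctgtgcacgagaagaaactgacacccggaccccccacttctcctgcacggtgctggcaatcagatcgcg
The Rarb stretch holds 2 hexamers, GGTTCA and AGTTCA, as a direct repeat with a spacer of 5 bases (a DR5), 53 to 37 bases before the RefSeq start. It overlaps 2 exon entries of Rarb in GENCODE M21. Among 32851 upstream windows of 250 bases over all genes, which overlap where a gene has several starts, 29 (0.0883%) held a DR5, 54 (0.164%) a DR1 and 57 (0.174%) a DR2 of these hexamers, and 38.6% held at least 1 hexamer. Of the members' windows, only that of Rarb held such a repeat; neither the window of Cyp26b1 nor the 3 of Dhrs3 held a hexamer at all. A match is a description of letters, and its absence from a window says nothing about sites elsewhere.

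The libraries held 44935235 (db/+) and 40974634 (db/db + salt) unique molecular identifiers (UMIs, counts of captured RNA molecules) in 5676 and 4751 barcodes, of which 4872 and 4097 were kept, with medians of 7047 and 7773 UMIs. Barcodes were assigned by UMIs of marker genes that include none of the members: 3139 and 2593 were endothelial-like, 1240 and 1097 fibroblast-like, 103 and 72 pericyte-like, 56 and 59 smooth muscle-like and 52 and 50 endocardial-like. Pericyte- and smooth muscle-like cells are not cleanly apart. In smooth muscle-like cells the pericyte markers summed to 12466 and 11315 counts per 1000000 UMIs of the class, and the smooth muscle markers to 12908 and 15342. The 9 endothelial markers summed to 8082 and 9075 CPM (the UMIs of a gene per 1000000 UMIs of the class) in endothelial-like cells and to 168 and 123 CPM in fibroblast-like cells, and the 8 fibroblast markers to 53.8 and 89.1 CPM and to 28686 and 29899 CPM. The 10 leading endothelial genes included 4 haemoglobin genes and 4 capillary markers (Timp4, Gpihbp1, Rgcc and Car4) and none of the 9 endothelial markers. Erythroid markers summed to 3649 and 2765 CPM there. Leaving out the 27 and 20 barcodes with over 1% erythroid UMIs, a choice made after seeing the data, brought that sum to 23.5 and 29.3 CPM and left the log2 ratios of Cyp26b1 and Dhrs3 at 2.92 and 0.64. The libraries shared 7 barcode sequences, of which 5 and 6 were among the kept barcodes.

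In endothelial-like cells Cyp26b1 and Dhrs3 stood higher in db/db + salt and the other measured members lay within 1.5-fold. In fibroblast-like cells Dhrs3 stood higher and Aldh1a2 lower, with Rarb close below the limit. For each ratio 10 CPM were added to both levels before the db/db + salt level was divided by that of db/+ and log2 taken, so differences of low genes are understated, and a gene is called measured in a class where its mean is at least 10 CPM. By a limit of 1.5-fold, 2 of 6 measured members were higher in endothelial-like cells and 0 lower, where 0.545% of 8250 genes were higher and 1.55% lower. In fibroblast-like cells 1 of 8 was higher and 1 lower, against 0.577 and 1.03% of 8673 genes. The median over measured members was 0.28 in endothelial-like and 0.11 in fibroblast-like cells, and over all genes 0.05 and 0.02. Since the members were chosen with these differences known, the counts describe them and support nothing further.

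**Figure D1:**
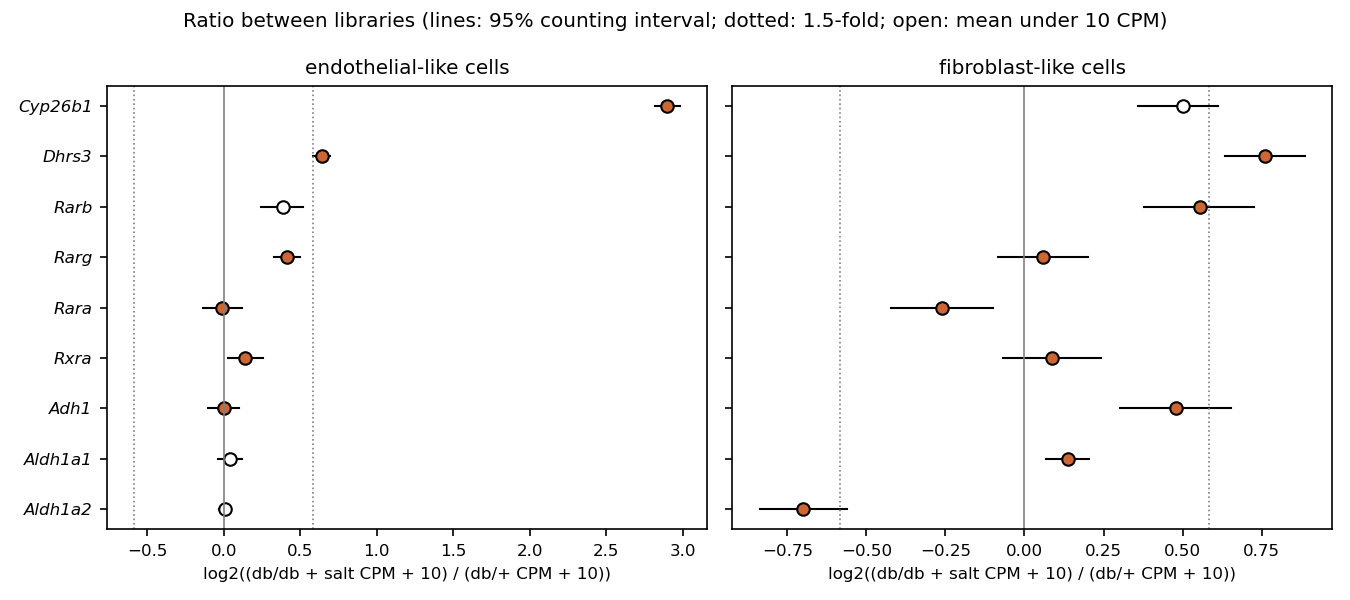
Log2 ratio (db/db + salt over db/+, pseudocount 10 CPM) of each member in endothelial-like and fibroblast-like cells, with 95% counting intervals as lines, 1.5-fold as dotted lines and open points for a mean under 10 CPM. Cyp26b1 lies at 2.90 in endothelial-like cells; in fibroblast-like cells Dhrs3 lies at 0.76 and Aldh1a2 at -0.70.

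Cyp26b1 (ENSMUSG00000063415, chr6:84571414-84593908, minus strand, GRCm38) was counted with 976 UMIs in db/+ and 7085 UMIs in db/db + salt endothelial-like cells. These are 41.2 CPM (95% Poisson interval 38.6 to 43.9) and 372 CPM (364 to 381). The db/db + salt level was far above the db/+ level, with intervals well apart. The plain ratio was 9.04 (8.45 to 9.67) and the log2 ratio 2.90 (2.82 to 2.98), the highest of the 8250 genes measured in the class. Endothelial-like cells held 91.6% of the gene's UMIs in db/+ and 89.3% in db/db + salt.

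Both more cells with a Cyp26b1 UMI and more UMIs per such cell went with the higher level. With every cell thinned to 1500 UMIs, 3.91% of db/+ endothelial-like cells (3.24 to 4.67%, Clopper-Pearson, 115 of 2942) and 26.8% of those of db/db + salt (25.1 to 28.6%, 668 of 2488) had a UMI. Cells with a UMI held 1.36 and 2.20 of them on average, and 0.306 and 7.76% of cells held 3 or more. In fibroblast-like cells, a type in which little of the gene was counted, 0.246 and 0.737% had a UMI at the same depth. Thinning left out 197 and 105 endothelial-like cells, and without it the shares were 12.1 and 45.5% at median depths of 5367 and 5397 UMIs, against 0.887 and 3.83% of fibroblast-like cells at 9636 and 11993 UMIs.

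Every endothelial subtype named by markers showed the difference, at different levels. Capillary-like cells had 175 and 2762 UMIs, or 41.0 CPM (35.1 to 47.5) in db/+ against 549 CPM (528 to 569) in db/db + salt, a log2 ratio of 3.45. Venous-like cells, with the highest db/+ level, were at 153 CPM (139 to 168) and 548 CPM (515 to 582), a log2 ratio of 1.78. In db/+ the venous level was thus above the capillary one, while in db/db + salt their intervals overlapped. Arterial-like cells had the lowest level in both libraries, with 11 UMIs (4.08 CPM, 2.04 to 7.30) and 271 UMIs (104 CPM, 92.3 to 118), a log2 ratio of 3.02. Angiogenic-like cells, a group marked by Apln and Esm1, were at 10.3 CPM (7.45 to 13.8) and 197 CPM (181 to 214), a log2 ratio of 3.35, and the 1377 and 956 cells without a subtype were at 32.9 and 366 CPM. By count, 2 of 6 measured members (Cyp26b1 and Dhrs3) were past 1.5-fold higher in capillary-like cells, where 0.737% of genes were higher and 1.29% lower. The count was 1 of 7 in arterial-like (1.02% higher, 1.38% lower), 2 of 7 in venous-like (1.57 and 2.9%; Cyp26b1 and Rarg) and 1 of 6 in angiogenic-like cells (0.815 and 1.4%), and 0 members were lower in these 4 subtypes. Differences between the ratios were not tested, because each rests on the same pair of libraries.

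**Figure D2:**
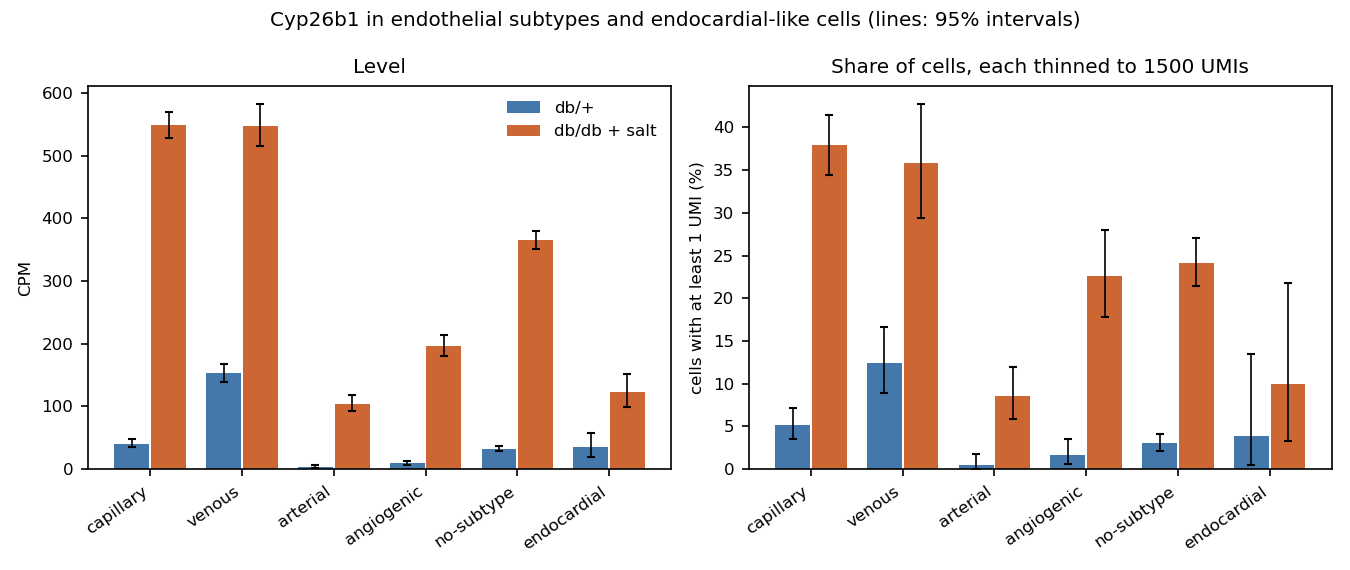
Left, Cyp26b1 level in CPM with 95% Poisson intervals, and right, percent of cells with at least 1 UMI after thinning to 1500 UMIs with 95% Clopper-Pearson intervals, in endothelial subtypes, endothelial-like cells without a subtype and endocardial-like cells of db/+ (blue) and db/db + salt (orange). In each subtype the db/db + salt bar is the higher; venous-like cells lead in db/+ (153 CPM) and arterial-like cells are the lowest in both (4.08 and 104 CPM).

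Other transcripts moved with these groups. Of the 10 leading venous-like genes 2 were venous markers (Vwf and Nr2f2) and 4 were antigen presentation genes (Cd74, H2-Eb1, H2-Ab1 and H2-Aa). Leaving out all endothelial-like cells with UMIs of 3 or more of 14 interferon and antigen genes kept 726 and 1341 cells and gave Cyp26b1 a log2 ratio of 3.76. Erythroid markers summed to 5255 and 76.2 CPM in angiogenic-like cells, and without barcodes over 1% erythroid UMIs the ratio there was 3.34. Among capillary-like cells Cyp26b1 and Adh1, which played no part in naming them, were both among the 10 leading genes against other endothelial-like cells. That ranking pooled the UMIs of both libraries. In db/+ alone the capillary Cyp26b1 level was close to that of all endothelial-like cells and below the venous one.

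Endocardial-like cells, which line the chambers, had 15 Cyp26b1 UMIs in db/+ and 88 in db/db + salt. These are 35.2 CPM (19.7 to 58.1) and 123 CPM (98.8 to 152), a log2 ratio of 1.56 (0.89 to 2.23). The UMIs lay in 4 and 11 cells, with up to 9 and 39 in 1 cell. In db/+ the interval overlapped that of endothelial-like cells, and in db/db + salt it lay below. Fibroblast markers summed to 3755 and 3906 CPM in the class, and endocardial markers to 5430 and 3419 CPM; their part in the result was not tested.

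Few Cyp26b1 UMIs were counted outside the endothelium. Pericyte-like cells had 5 and 28 UMIs (5.06 and 45.2 CPM) and smooth muscle-like cells 1 and 27 (1.59 and 38.7 CPM, a plain ratio of 24.4, 4.02 to 998). In these classes the 9 endothelial markers stood at 43.0 and 33.8% (pericyte-like) and 45.3 and 40.6% (smooth muscle-like) of their endothelial level, with single markers from 13.9 to 82.2%. Cyp26b1 stood below the lowest of them, at 12.3 and 12.1% among pericyte-like cells and at 3.86 and 10.4% among those like smooth muscle. Among the 42 and 43 pericyte-like and 14 and 15 smooth muscle-like cells with under 5% endothelial marker UMIs, a subset chosen after seeing the data, no Cyp26b1 UMI was found. By a limit of 3 counts, this allows up to 16.1 and 39.7 CPM for db/+, above the levels of the whole classes. For db/db + salt it allows up to 14.2 CPM in pericyte-like cells, below the class level of 45.2 CPM. In smooth muscle-like cells of db/db + salt it allows up to 34.3 CPM, close to the class level of 38.7 CPM. These limits treat UMIs as independent between cells. Thinned to 3000 UMIs, only 2 of 63 pericyte-like and 4 of 52 smooth muscle-like cells of db/db + salt had a Cyp26b1 UMI. With UMIs in so few cells, these limits cannot decide whether the subsets differ from the whole classes. Cyp26b1 was the 1 of 6 measured members past 1.5-fold in smooth muscle-like cells, and 0 were lower, where 5.9% of genes were higher and 6.27% lower.

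Fibroblast-like cells had 15 and 80 Cyp26b1 UMIs, or 1.21 CPM and 5.89 CPM (4.67 to 7.33). The level was 2.94 and 1.58% of the endothelial one, and the summed endothelial markers stood at 2.08 and 1.35% of theirs. Single markers ranged from 1.56 to 2.71% in db/+, just below the gene, and from 0.899 to 2.73% in db/db + salt, on both sides of it. Of the 80 UMIs, 26 came from 1 barcode of the matrix subtype, where the gene was counted at 9 and 32 UMIs. Among fibroblast-like cells with under 5% endothelial marker UMIs, 13 and 40 Cyp26b1 UMIs were left, or 1.11 and 3.01 CPM. The summed endothelial markers were at 52.3 and 62.3 CPM in this subset, against 168 and 123 CPM in all fibroblast-like cells. The markers were thus lower there in both libraries. Cyp26b1 was about as before in db/+ (1.11 against 1.21 CPM) and lower in db/db + salt (3.01 against 5.89 CPM). The part of endothelial transcripts in these values was not tested.

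**Figure D3:**
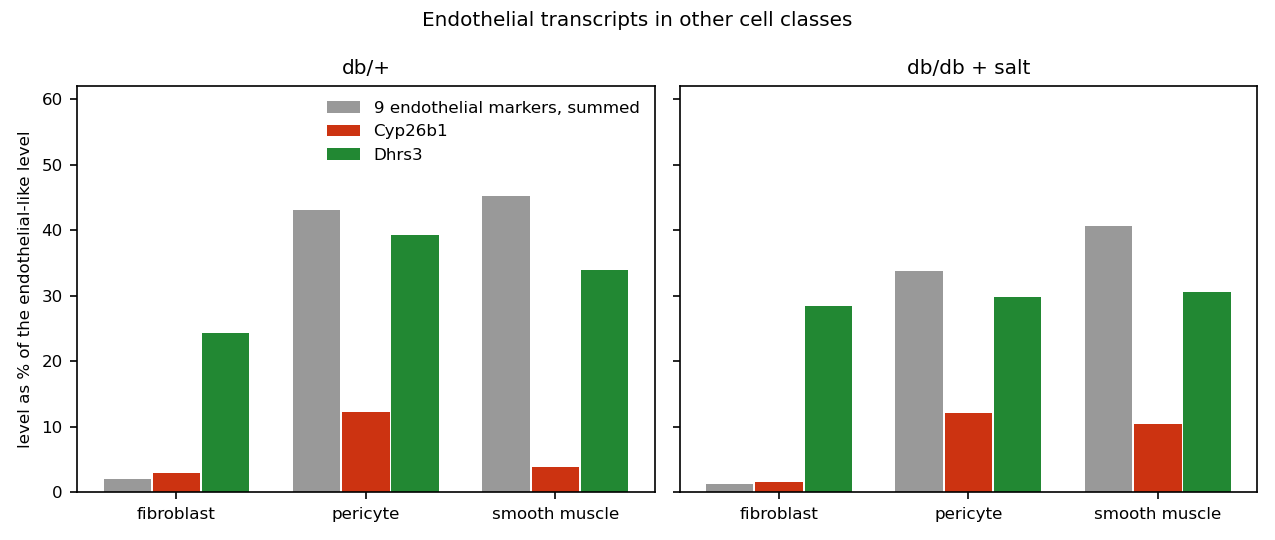
Level of the 9 endothelial markers (summed), Cyp26b1 and Dhrs3 in fibroblast-, pericyte- and smooth muscle-like cells as a percent of their level in endothelial-like cells, in each library. In fibroblast-like cells Cyp26b1 (2.94 and 1.58%) lies near the markers (2.08 and 1.35%) while Dhrs3 stands at 24.3 and 28.4%.

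Dhrs3 (ENSMUSG00000066026, chr4:144892827-144928209, plus strand), the retinal reductase, was found in every class and was highest in endothelial-like cells. There it had 4209 and 5369 UMIs, or 178 CPM (172 to 183) in db/+ against 282 CPM (275 to 289.7) in db/db + salt. The intervals were apart, with a log2 ratio of 0.64 (0.58 to 0.69), rank 36 of 8250. With TMM scaling the ratio was 0.55, and without the interferon-state cells 0.58, both under 1.5-fold. A Dhrs3 UMI was found in 24.6% of db/+ and 34.9% of db/db + salt cells after thinning.

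Dhrs3 differed in level among subtypes more than in ratio. Capillary-like cells led with 260.2 and 399.8 CPM (log2 ratio 0.60), followed by venous-like cells with 220.3 and 318 CPM (0.51). Arterial-like cells were at 137 and 183 CPM (0.39) and angiogenic-like cells, the lowest, at 92.3 and 138 CPM (0.54). The intervals of neighbours in this order did not overlap in db/+, and the ratios were not tested against each other. The capillary value was past 1.5-fold by little, and under it in 5 of 13 alternatives, among them TMM scaling (0.53) and thinning (0.50).

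In fibroblast-like cells Dhrs3 had 534 UMIs in db/+ (43.2 CPM, 39.6 to 47.0) and 1088 in db/db + salt (80.1 CPM, 75.4 to 85.0). The log2 ratio was 0.76 (0.63 to 0.89), rank 24 of 8673, and 5.09% of cells (62 of 1219) and 11.0% (120 of 1086) had a UMI after thinning. At 24.3 and 28.4% of the endothelial level it stood far above the endothelial markers. With under 5% endothelial marker UMIs the ratio was again 0.76. Pericyte-like cells were at 69.8 and 84.0 CPM, smooth muscle-like cells at 60.4 and 86.0 CPM and endocardial-like cells at 54.0 and 71.4 CPM, with overlapping intervals between the libraries in each.

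Rarb (ENSMUSG00000017491, chr14:16430839-16819156, minus strand) was counted at low levels in every class. In fibroblast-like cells it had 101 UMIs in db/+ (8.17 CPM, 6.65 to 9.92) and 227 in db/db + salt (16.7 CPM, 14.6 to 19.0). The plain ratio was 2.05 (1.61 to 2.61), while the log2 ratio with the pseudocount was 0.56 (0.38 to 0.73), just under 1.5-fold. With cells thinned to 1500 UMIs, 19 and 20 cells had a Rarb UMI and the ratio was 0.17. At 3000 UMIs these were 37 of 1195 and 52 of 1076 cells, with overlapping intervals of the shares, and without thinning 93 of 1240 and 184 of 1097 cells at medians of 9636 and 11993 UMIs. The end of Rarb is overlapped by Top2b on the opposite strand, and the sources used here do not say whether counting used strand; Top2b was at 144 and 159 CPM in fibroblast-like cells, a log2 ratio of 0.13.

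In endothelial-like cells Rarb was at 7.13 CPM (6.10 to 8.29, 169 UMIs) and 12.3 CPM (10.8 to 14.0, 235 UMIs), a plain ratio of 1.73 at a mean under 10 CPM. Arterial-like cells had the highest level of the endothelial subtypes, 17.4 CPM (12.8 to 23.2) and 28.5 CPM (22.4 to 35.8), with a log2 ratio of 0.49. In db/+ this interval overlapped that of venous-like cells (13.5 CPM, 9.57 to 18.6). Venous-like cells did not share the direction, at 12.1 CPM in db/db + salt, nor did pericyte-like cells (19.2 and 17.8 CPM), and in both the intervals of the libraries overlapped. They also overlapped in smooth muscle-like (12.7 and 15.8 CPM) and endocardial-like cells (14.1 and 23.8 CPM).

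Rarg (ENSMUSG00000001288, chr15:102234938-102257517, minus strand) was highest in endothelial-like cells. Its db/+ level was 73.2 CPM (69.8 to 76.7, 1735 UMIs) and its db/db + salt level 101 CPM (96.3 to 105, 1918 UMIs), a log2 ratio of 0.41 (0.33 to 0.50) under the limit of 1.5-fold. The ratio was above 0 in all 4 endothelial subtypes, from 0.28 in capillary-like to 0.63 in venous-like cells, the latter past 1.5-fold (165 and 183 UMIs, 58.7 and 96.6 CPM). That venous value was under 1.5-fold in 5 of 13 alternatives, among them TMM scaling (0.56) and Leiden clusters (0.57). Fibroblast-like cells were at 39.9 CPM (36.5 to 43.6) and 42.0 CPM (38.6 to 45.6), with overlapping intervals.

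The smaller classes gave Rarg values in both directions. Endocardial-like cells had 6 UMIs in db/+ (14.1 CPM, 5.17 to 30.6) and 37 in db/db + salt (51.8 CPM, 36.5 to 71.4), a log2 ratio of 1.36. Pericyte-like cells had 46 UMIs (46.6 CPM, 34.1 to 62.1) and 15 (24.2 CPM, 13.6 to 39.9), a log2 ratio of -0.73 (-1.37 to -0.06), and 0.13 with thinned cells. It was under 1.5-fold in 6 of 13 alternatives. Endothelial markers in pericyte-like cells summed to 3479 and 3069 CPM, and their part in this value was not tested; in those with under 5% endothelial marker UMIs 4 and 3 Rarg UMIs were left. Past 1.5-fold in pericyte-like cells were also Cyp26b1 and Aldh1a1, so 2 of 7 measured members were higher and 1 lower, where 6.14 and 5.35% of genes were. In endocardial-like cells 2 of 8 (Cyp26b1 and Rarg) were higher and 1 (Adh1) lower, against 10.8 and 7.3% of genes.

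The receptors Rara (ENSMUSG00000037992, chr11:98927818-98974942, plus strand) and Rxra (ENSMUSG00000015846, chr2:27676440-27762957, plus strand) were spread over all classes and passed 1.5-fold in none of the 5. In endothelial-like cells Rara was at 25.6 and 25.3 CPM (log2 ratio -0.01, -0.14 to 0.12). In fibroblast-like cells it was at 27.7 CPM (24.9 to 30.8) in db/+ against 21.5 CPM (19.1 to 24.1) in db/db + salt, a log2 ratio of -0.26. This fibroblast difference was lower in db/db + salt beyond counting error, and in the adventitial subtype the ratio was -0.46 (-0.81 to -0.10). Rxra was at 32.4 CPM (30.2 to 34.8) and 36.8 CPM (34.1 to 39.6) in endothelial-like cells and at 27.8 and 30.2 CPM in fibroblast-like cells, with log2 ratios of 0.14 and 0.09. Rara was at 28.3 and 45.2 CPM in pericyte-like, 25.4 and 18.6 CPM in smooth muscle-like and 37.5 and 46.2 CPM in endocardial-like cells. Rxra was at 37.5 and 48.4 and at 23.8 and 37.3 CPM in pericyte- and smooth muscle-like cells and had 18 and 25 UMIs in endocardial-like cells, and for both genes the intervals of the libraries overlapped in each.

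**Figure D4:**
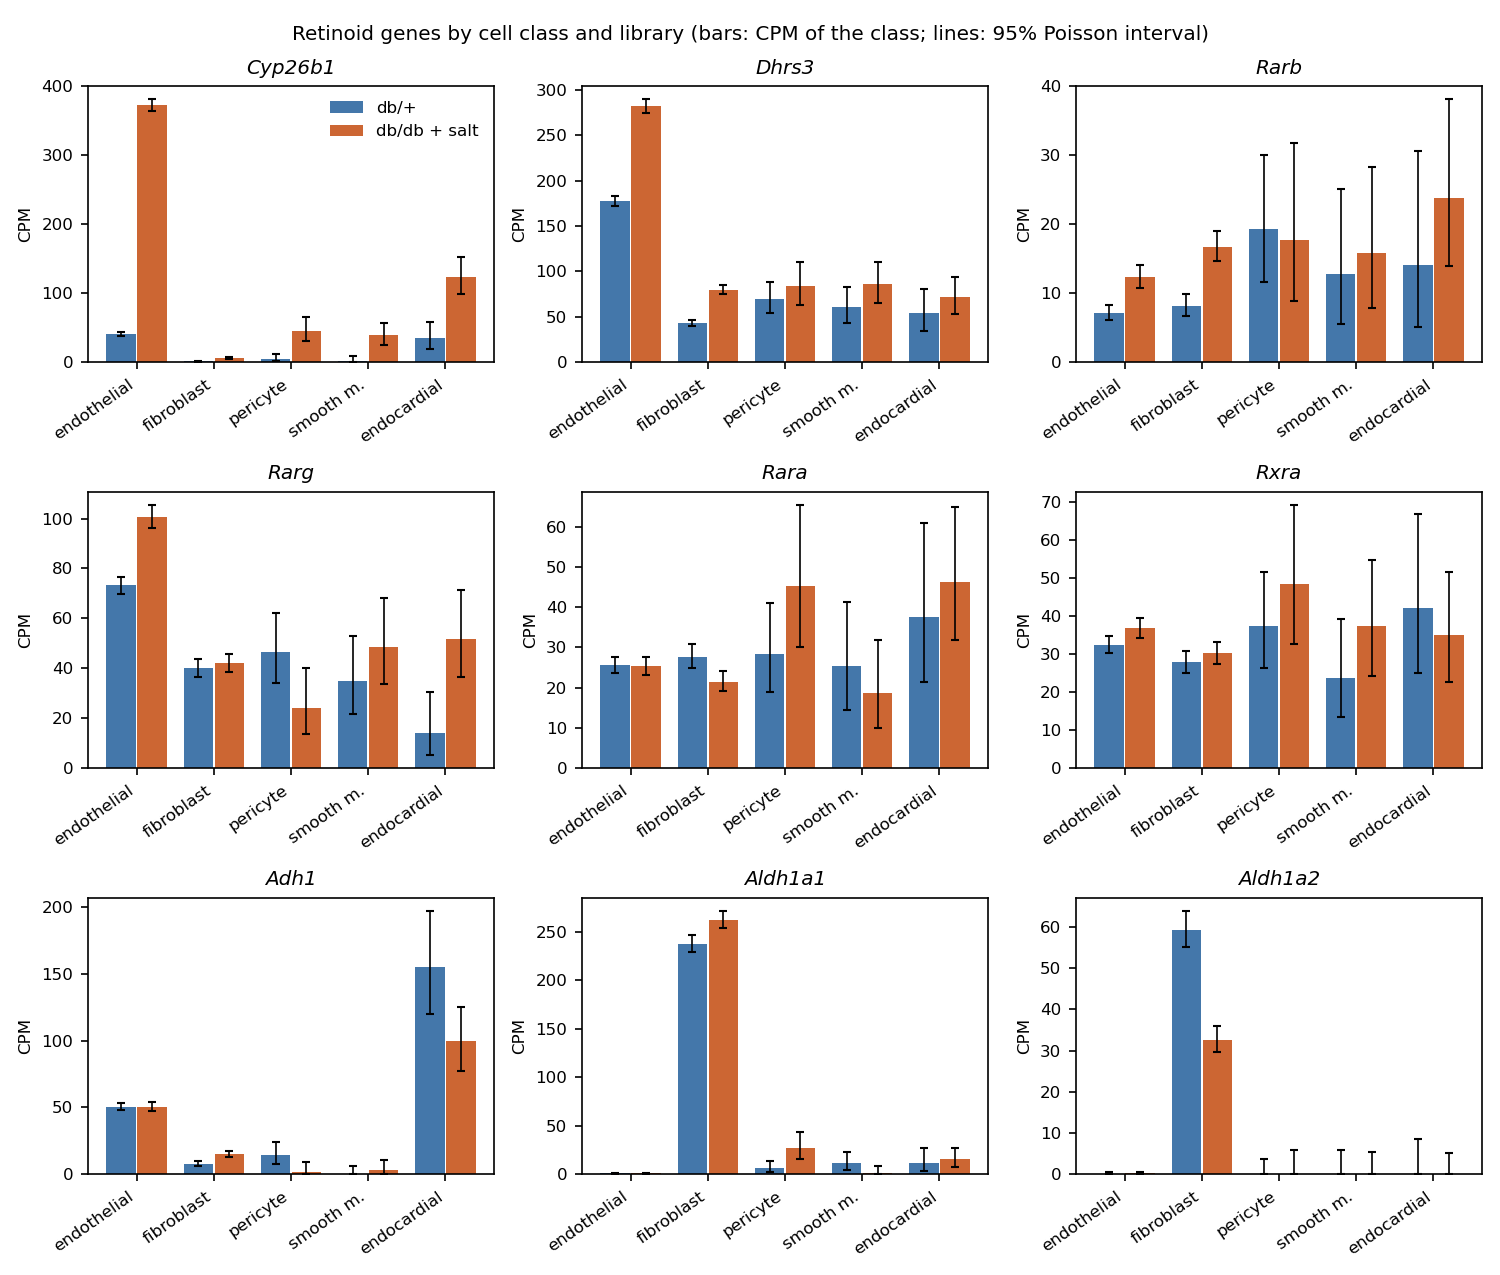
CPM of each member by cell class in db/+ (blue) and db/db + salt (orange), with 95% Poisson intervals as lines and a separate scale starting at 0 in each panel. Cyp26b1, Dhrs3 and Rarg are highest in endothelial-like cells, Adh1 in endocardial-like cells (155 and 99.4 CPM) and Aldh1a1 and Aldh1a2 in fibroblast-like cells.

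The enzymes on the way to retinoic acid lay in different cells. Adh1 (ENSMUSG00000074207, chr3:138260991-138290698, plus strand) was highest in endocardial-like cells, with 66 and 71 UMIs. These are 155 CPM (120 to 197) in db/+ against 99.4 CPM (77.6 to 125) in db/db + salt. The intervals just overlapped, and the log2 ratio was -0.59 (-1.06 to -0.12), just past 1.5-fold, and under it in 6 of 12 alternatives. The endocardial markers of these cells summed to 5430 and 3419 CPM, lower in db/db + salt as well, and their part in the value was not tested. Endothelial-like cells came next at 50.6 CPM (47.8 to 53.6) and 50.5 CPM (47.4 to 53.8), with no difference beyond counting error.

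Within the endothelium the Adh1 level was highest in capillary-like cells, which held 435 of its 1200 endothelial UMIs in db/+ and 400 of 962 in db/db + salt. They were at 102 CPM (92.5 to 112) and 79.4 CPM (71.8 to 87.6), lower in db/db + salt at a log2 ratio of -0.32. Angiogenic-like cells were at 42.2 and 49.2 CPM, venous-like at 26.7 and 32.2 CPM and arterial-like at 9.65 and 11.6 CPM, each with overlapping intervals. In fibroblast-like cells Adh1 was at 7.92 CPM (6.43 to 9.66) and 15.0 CPM (13.0 to 17.2), higher in db/db + salt with a log2 ratio of 0.48 under 1.5-fold, and its highest fibroblast level was in the interstitial subtype (15.7 and 21.2 CPM). Pericyte-like cells had 14 and 1 Adh1 UMIs (14.2 and 1.61 CPM, a plain ratio of 0.114, 0.00269 to 0.749) and smooth muscle-like cells 0 and 2.

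Aldh1a1 (ENSMUSG00000053279, chr19:20492715-20643465, plus strand) was a fibroblast gene, with 95.3% of its UMIs in fibroblast-like cells in both libraries. There it was at 238 CPM (230 to 247, 2945 UMIs) in db/+ against 263 CPM (254 to 272, 3572 UMIs) in db/db + salt, with intervals apart but a log2 ratio of only 0.14. In endothelial-like cells it was at 0.76 and 1.05 CPM, 0.319 and 0.400% of the fibroblast level, beside fibroblast markers at 0.188 and 0.298%. Pericyte-like cells had 6 and 17 UMIs, or 6.07 and 27.4 CPM, with fibroblast markers at 471 and 626 CPM; the part of these was not tested. This value was under 1.5-fold in 3 of 13 alternatives, thinning among them (0.30). Smooth muscle-like cells had 7 and 1 UMIs, or 11.1 and 1.43 CPM, a plain ratio of 0.129 (0.00286 to 1.00), and endocardial-like cells were at 11.7 and 15.4 CPM. Aldh1a7, a near copy with 89.8% of aligned transcript bases identical, had 6 and 5 UMIs in fibroblast-like cells, and reads may be split between the copies.

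Aldh1a2 (ENSMUSG00000013584, chr9:71215789-71296243, plus strand) was likewise a fibroblast gene, with 98.1 and 92.9% of its UMIs in fibroblast-like cells and none in pericyte-, smooth muscle- or endocardial-like cells. In fibroblast-like cells it had 734 UMIs in db/+ (59.3 CPM, 55.1 to 63.8) and 444 in db/db + salt (32.7 CPM, 29.7 to 35.9). The db/db + salt level was the lower, with intervals apart, at a plain ratio of 0.55 (0.488 to 0.62) and a log2 ratio of -0.70 (-0.84 to -0.56), the 55th lowest of 8673 genes. After thinning 7.22% of cells (5.83 to 8.82%) and 4.05% (2.96 to 5.40%) had a UMI, against 0.068 and 0.0804% of endothelial-like cells. Mesothelial markers, which include those of the epicardium, summed to 1.29 and 1.25 CPM in fibroblast-like cells, and no kept barcode was assigned to that class.

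The 3 fibroblast subtypes differed in these genes. Adventitial-, matrix- and interstitial-like cells were 254, 205 and 301 of the 1240 fibroblast-like cells in db/+. In db/db + salt they were 230, 127 and 311 of 1097. The other fibroblast-like cells had no subtype and are not in the subtype values. Aldh1a2 was highest in adventitial-like cells, marked by Dpp4 and Cd248, and interstitial-like cells of db/+, at 74.2 CPM (64.5 to 84.9) and 72.4 CPM (62.3 to 83.6). In db/db + salt adventitial-like cells were at 25.8 CPM (20.6 to 31.9), a log2 ratio of -1.24 and the 24th lowest of 8551 genes. Interstitial-like cells were at 46.7 CPM (39.6 to 54.7), a ratio of -0.54, and matrix-like cells, marked by Comp and Cilp, at 29.2 and 20.3 CPM (-0.37), with overlapping intervals. On the log2 scale with its pseudocount the difference was past 1.5-fold only in adventitial-like cells among the 3 subtypes, though the ratios were not tested against each other.

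Summed over all UMIs, Dhrs3 and Rarb stood higher in db/db + salt in the 3 fibroblast subtypes. Dhrs3 was at 31.4 and 64.3 CPM in adventitial-like, 53.8 and 113 CPM in matrix-like and 36.2 and 66.1 CPM in interstitial-like cells, with intervals apart and log2 ratios of 0.84, 0.95 and 0.72. Rarb had 19 and 58, 26 and 53, and 13 and 45 UMIs, with plain ratios of 2.62, 2.79 and 2.67 and log2 ratios of 0.72, 0.93 and 0.65. Each of these Rarb ratios lay above that of the whole fibroblast-like class, which also holds the cells without a subtype. With cells thinned to 1500 UMIs a Rarb UMI was found in 3 of 250 and 3 of 229 adventitial-like, 6 of 204 and 6 of 126 matrix-like and 1 of 298 and 6 of 309 interstitial-like cells, with overlapping intervals in each. At 3000 UMIs 4 of 246 and 16 of 229 adventitial-like cells had one. Both genes were highest in matrix-like cells, although in db/+ the Rarb interval there (6.62 to 14.8 CPM) overlapped those of the other subtypes. Aldh1a1 followed another order, with 114 and 131 CPM in adventitial-like, 289 and 317 CPM in matrix-like and 354 and 359.9 CPM in interstitial-like cells, and overlapping intervals between the libraries in each. By count, 2 of 7 measured members were higher and 1 lower in adventitial-like cells (1.12 and 1.45% of genes), 3 of 8 higher in matrix-like cells (1.48% of genes; 0 lower, 1.59% of genes), Cyp26b1 with its 26 UMIs of 1 barcode among them, and 1 of 7 higher in interstitial-like cells (1.2% of genes; 0 lower, 1.46% of genes), where Rarb had a mean under 10 CPM.

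**Figure D5:**
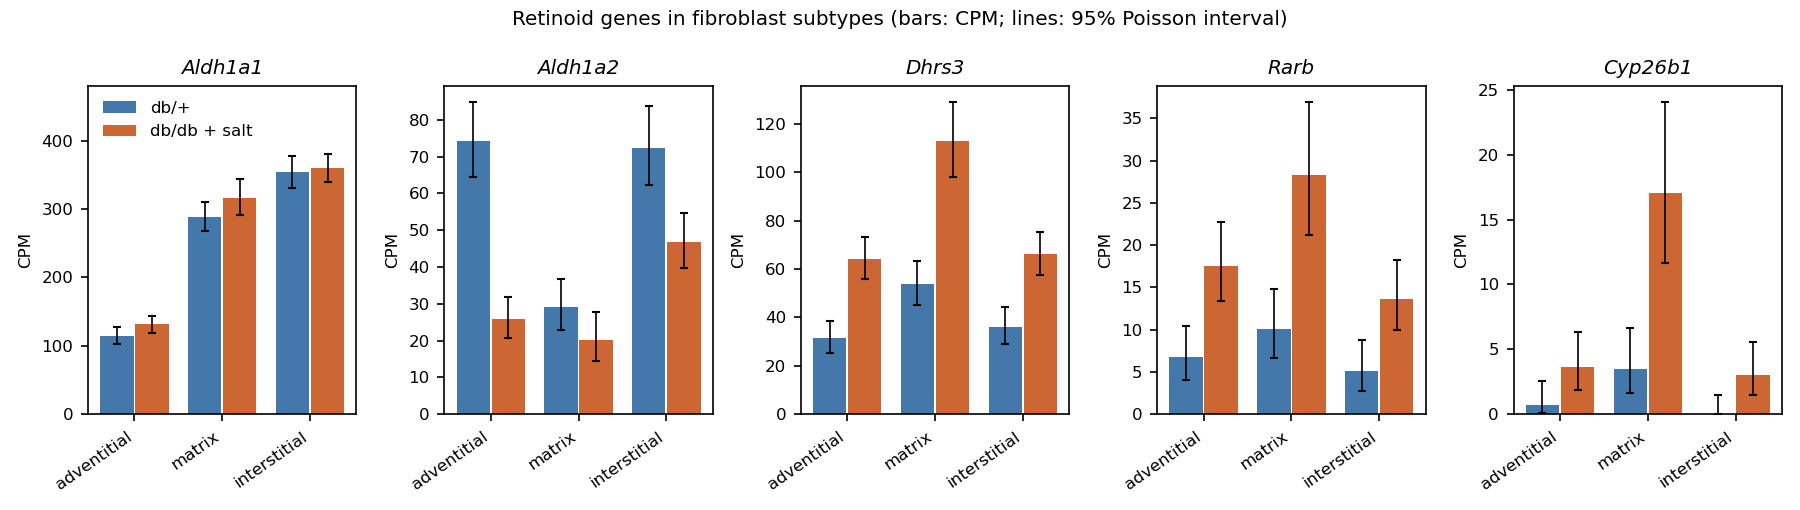
CPM of 5 members in adventitial-, matrix- and interstitial-like fibroblasts of db/+ (blue) and db/db + salt (orange) with 95% Poisson intervals. Aldh1a2 is lower in db/db + salt, most in adventitial-like cells (74.2 and 25.8 CPM), while Dhrs3 and Rarb are higher in each subtype; of the 32 Cyp26b1 UMIs of matrix-like cells, 26 are from 1 barcode.

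In db/db + salt, endothelial-like cells with a Cyp26b1 UMI also held more Dhrs3. With cells thinned to 1500 UMIs, it was at 429 CPM (430 UMIs) in the 668 cells with a Cyp26b1 UMI and at 281 CPM (766 UMIs) in the 1820 without. In db/+ the values were 243 CPM (42 UMIs in 115 cells) and 206 CPM, a difference within counting error. Cells without a Cyp26b1 UMI therefore still held more Dhrs3 in db/db + salt than in db/+. Rarb was at 19.0 and 17.6 CPM with and without Cyp26b1 in db/db + salt. Within capillary-like cells Dhrs3 was at 498 CPM with and 383 CPM without Cyp26b1 in db/db + salt, but at 237 CPM (11 UMIs) and 301 CPM in db/+. In venous-like cells of db/+ the values were 246 CPM (14 UMIs) with and 260.2 CPM without. In those of db/db + salt they were 412 CPM (47 UMIs) with and 314 CPM without. Angiogenic-like cells of db/db + salt were at 258 CPM (24 UMIs) with and 129 CPM without. Arterial-like cells of db/db + salt were close, at 194 CPM (9 UMIs) with and 185 CPM without. In db/+ only 6 angiogenic-like and 2 arterial-like cells had a Cyp26b1 UMI.

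No further gene measured on the pathway list passed 1.5-fold in endothelial- or fibroblast-like cells, a count near the background. Of 38 such genes of uptake, conversion, binding, degradation and coregulation, 17 were measured in endothelial-like cells and 0 passed 1.5-fold either way, where 0.545% of all genes were higher and 1.55% lower, with a median of 0.09 against 0.05 over all genes. In fibroblast-like cells 0 of 20 did, where 0.577 and 1.03% of all genes did, with a median of 0.05 against 0.02. The receptors and coregulators were above 0 in 10 of 10 in endothelial-like cells, with a median of 0.15 against 0.05 over all genes. The share of all genes above 0 was not counted, but their median was above 0 as well. TMM scaling lowers the ratios there by up to 0.09, those of the list and of all genes alike, and brings the median of all genes to -0.01. The other Cyp26 enzymes were nearly absent from the endothelium, with 3 and 3 UMIs for Cyp26a1 and 0 and 2 for Cyp26c1, and Cyp26a1 had 60 and 79 UMIs (4.85 and 5.81 CPM) in fibroblast-like cells.

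Of 23 genes known to respond to retinoic acid, 7 were measured in endothelial-like and 12 in fibroblast-like cells, and 0 passed 1.5-fold beside the same low shares over all genes. Over both lists, among the furthest from 0 in endothelial-like cells were the corepressor Nrip1 (62.3 and 86.2 CPM, log2 ratio 0.41), the fatty acid and retinoid binding protein Fabp5 (2029 and 1599.9 CPM, -0.34), the ectoenzyme Cd38 (179 and 224 CPM, 0.31), the coactivator Ncoa1 (0.25) and the transglutaminase Tgm2 (193 and 232 CPM, 0.25). In fibroblast-like cells they were the retinol dehydrogenase Rdh10 (19.7 and 26.6 CPM, 0.30), Ncoa1 (68.8 and 86.9 CPM, 0.30), the repressor Hic1 (76.2 and 93.0 CPM, 0.26), the homeobox gene Meis2 (0.25), the coactivator Ncoa2 (0.24) and Nrip1 (148 and 125 CPM, -0.23). In arterial-like cells the homeobox genes Meis1 (17 and 38 UMIs) and Meis2 (19 and 46 UMIs), both response genes, were past 1.5-fold higher, where 1.02% of 8175 genes were, and Cyp26b1 was higher there too.

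Genes with the most similar pattern were ranked by Pearson correlation of log2(CPM + 10) over 18 points, 9 classes and subtypes in each library, among 5591 genes; the points share cells, since the endothelial class contains its subtypes. Nearest to Cyp26b1 were Brd9 (r = 0.87), Uhrf2 (0.84) and Ocel1 (0.84). Adh1 was nearest to Adh5 (0.88), Rarg to Jup (0.95), Dhrs3 to Impdh1 (0.91), Rxra to Srsf5 (0.86), Rarb to Fn1 (0.80) and Rara to Tmem176b (0.78). Aldh1a2 was nearest to Cilp (0.999) and Aldh1a1 to Tnxb (0.98). The points hold the fibroblast class once per library and none of its subtypes, so these last values mostly separate fibroblast-like from other cells, and within fibroblasts Cilp marks the matrix subtype, where Aldh1a2 was lowest.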

How the data were processed

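The deposited values are raw counts: whole numbers of UMIs for each gene in each barcode, without normalization, written by the authors with Cell Ranger 6.0.2 per the file headers. The submitters' processing notes also name Seurat and GRCm38 (mm10). The extract protocol in the labels names the 10x 3' kit v3.1. Not given in the sources used here: annotation release, strand and intron settings. Barcode and feature lists only name rows and columns.

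Kept barcodes had at most 10% mitochondrial UMIs and at least 500 genes. Scrublet then removed 76 of 4948 (1.54%) and 47 of 4144 (1.13%) barcodes as doublets. A class needed at least 75% of a barcode's class marker UMIs and 3 distinct markers; 252 and 186 barcodes stayed mixed. Pericyte- and smooth muscle-like cells were split by the larger share of detected markers. Endocardial-like cells needed 5 of 9 endothelial and 3 of 6 endocardial markers. Subtypes needed a mean marker z-score of 0.3 and a lead of 0.2, and 77 and 88 capillary-like cells lay within 0.05 of these limits. This scoring was set after the counts were seen. The 26 and 34 lymphatic endothelial-like cells were under 50 and appear in the closing section only.

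UMIs were summed per class and library and scaled to CPM. Levels carry exact Poisson 95% intervals, shares Clopper-Pearson intervals and ratios an exact binomial interval of the split of UMIs. With 1 library per group no test was made. The ratio code was tested on simulated counts with 200 changed genes. All 9 members were followed in each class and named, and of the pathway and response lists up to 6 genes per class with the largest ratios, other genes being named as whole short lists or after their values were seen. Some genes of these lists are not reported here by name. The members and lists were chosen with earlier results of these data known. Alternatives were pseudocounts, TMM scaling (edgeR 4.0.16), thinning, mean of cells, mitochondrial limits, doublets kept, a 90% class rule, Leiden clusters made without the members, filters, shared barcodes, interferon-state cells, and, added after seeing the data, barcodes low in endothelial or rich in erythroid UMIs. Python 3.11.15, scanpy 1.11.5 and scipy 1.17.1 were used. Of 31053 gene identifiers, 30934 were found in GENCODE M21.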

Additional observations from a re-analysis of the deposited data

Results flagged for a closer look

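Rarg was past 1.5-fold in opposite directions in different cell classes, and the difference between the classes was not tested. Its log2 ratio was 1.36 in endocardial-like cells (6 and 37 UMIs) and 0.63 in venous endothelial-like cells (165 and 183 UMIs), but -0.73 in pericyte-like cells (46 and 15 UMIs). The pericyte value was 0.13 with cells thinned to 1500 UMIs and under 1.5-fold in 6 of 13 alternatives, and the venous value in 5 of 13.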

How the results depend on the processing

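No paired analysis was possible because there is 1 library per group and no replicate numbers. Of 78 ratios, taken without the limit of 10 CPM on the mean, 19 were past 1.5-fold. They include Adh1 in pericyte-like and Aldh1a1 in smooth muscle-like cells, both under that limit and so not in the counts by class above. The ratios are not separate, since the endothelial subtypes share cells with their class, and the shares over all genes are given by class above. All 19 stayed so with a pseudocount of 1 CPM, doublets kept, shared barcodes left out or erythroid-rich barcodes left out, 14 with Leiden clusters and 9 with a pseudocount of 50 CPM. Cyp26b1 in endothelial-like cells (2.90) was 3.15 and 2.21 with pseudocounts of 1 and 50 CPM, 3.15 thinned, 3.09 as the mean of cells, 2.80 with at most 5% mitochondrial UMIs and 3.76 without interferon-state cells. Dhrs3 there was 0.54 with 50 CPM, 0.55 with TMM and 0.58 without interferon-state cells, each leaving 1 member higher. In fibroblast-like cells, pseudocounts of 1 and 50 CPM gave Rarb 0.95 and 0.20 and Aldh1a2 -0.84 and -0.40, and 50 CPM gave Dhrs3 0.48; thinning gave Dhrs3 1.00 and Rarb 0.17. There 3 members were higher with 1 CPM, 2 thinned or with 5% mitochondrial UMIs and 0 with 50 CPM; 0 were lower with 50 CPM or among genes of at least 50 CPM; and 1 pathway gene was higher when thinned. In pericyte-like cells Rarg became 0.13 thinned and Adh1 0.064 with Leiden clusters, both of opposite sign. The fewer UMIs of thinned cells and the pseudocount by construction act most on low genes; other causes were not tested. Few cells (50 to 103) limit single genes in the 3 smaller classes, and 1 library per group limits every comparison.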

Other observations

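Adh1 had no UMI in the 26 lymphatic endothelial-like cells of db/+ and 15 UMIs in the 34 of db/db + salt (33.2 CPM, at least 4.99-fold higher against a floor of 3 counts in the library). Endocardial markers summed to 39.9 and 133 CPM and fibroblast markers to 26.6 and 144 CPM in these cells, and their part in the value was not tested. In endocardial-like cells the retinol binding protein Rbp7 had 17 and 223 UMIs (39.9 and 312 CPM) and the lipoprotein receptor Lrp1 3 and 59 UMIs, both chosen after their values were seen. With Dhrs4 they made 3 of 19 measured pathway genes past 1.5-fold higher in this class, and 0 were lower. Of all genes there, 10.8% were higher and 7.3% lower. Rbp7 was past 1.5-fold lower in lymphatic endothelial-like cells. In adventitial-like fibroblasts Fabp5 was at 71.4 and 36.1 CPM, a log2 ratio of -0.82.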
